A study of Arabidopsis thaliana with 6 samples.

Results

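The transcripts described here stood lowest in mock replicate 1 and highest in mock replicate 3 of an experiment on Arabidopsis thaliana seedlings. They are the non-control probe sets in which mock replicate 3 exceeded mock replicate 1 by at least 1.5 on the log2 scale and mock replicate 2 lay between them. Of 22746 non-control probe sets, 227 were members, after PSAN, PSBY, LHCB4.2, PSAE-1 and RCA, 5 genes of the photosynthetic apparatus that met the numbers, were left out by name. No probe set with a plastid gene symbol met the numbers, and unnamed members could not be checked for this. Replicates of a group have no order of their own, so the members are a record of how far untreated samples stood apart, and the mock values that chose them are given as a description. Of the 227 members, 87 had a probe set paired with 1 gene and 140 are unnamed here, and each of the 87 named members stood for a different gene.

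The arrays came from Col-0 wild-type seedlings, 4 days old and grown upright on MS plates. The 3 mock samples were sprayed with a mock solution. The other 3 received 10 µM NJ15, the ethyl ester of a tetrazole acetic acid with a dichlorophenyl ring. Both groups were then rotated by 90 degrees and harvested 8 h later, and each sample was hybridised to 1 Affymetrix array, with the samples labelled as biological replicates. The labels give neither the light regime nor the hour of harvest. All levels below are deposited values per probe set, read as log2, and 3 values in a row are replicates 1, 2 and 3 of a group. With 3 arrays a group, precision is limited by their number.

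Most of the named members whose role is known encode proteins of the chloroplast. Seedlings that turn green build the photosynthetic machinery from chlorophyll, which is made by the tetrapyrrole pathway, from proteins encoded in the nucleus and imported into the plastid, and from proteins made on the plastid's own ribosomes. The nuclear genes of these steps are well known to respond together to light, to the circadian clock and to signals from the plastid. RNA was taken from whole seedlings, so fewer green cells in a sample and less of a transcript per green cell cannot be told apart.

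Array medians over all probe sets lay between 7.24 and 7.27. A flat probe set, with a range of at most 0.01 over the 6 arrays, was the most frequent kind, at 16602, and the remaining 6144 are called varying. With so many flat probe sets the array medians are held nearly level. They cannot show whether the varying probe sets had an equal overall level on the 6 arrays. The distance between the 3′ and 5′ control probe sets of GAPDH, a sign of RNA integrity, was 1.37, 1.42 and 1.35 in mock and 0.82, 1.09 and 1.096 in NJ15. It was lowest in NJ15 replicate 1, the array in which most members were lowest among NJ15, and it did not order the mock arrays as the members did. The same distance for ubiquitin was 0.69, 0.45 and 0.72 in mock and 0.46, 0.43 and 0.54 in NJ15, lowest in NJ15 replicate 2. The control probe set for 25S ribosomal RNA was lowest in NJ15 replicate 1, at 10.88, 11.24 and 11.04, and nearly level in mock, at 11.50, 11.47 and 11.49. A control probe set for 5S ribosomal RNA ran opposite to the members, at 8.03, 7.61 and 6.43 in mock and 7.32, 6.04 and 6.06 in NJ15. It was the 1 control probe set of 64 that met the numbers of the rule with the sign turned, and none met the rule. The part of these controls in the members' levels was not tested.

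Over the 227 members, the median level was 7.82 in mock replicate 1, 8.94 in replicate 2 and 10.00 in replicate 3. The distance from mock replicate 1 to mock replicate 3, called the mock span here, had a median of 1.96 and ran from 1.505 to 5.47. Mock replicate 2 stood at a median of 56.8% of the span, where 0% is the level of mock replicate 1 and 100% that of mock replicate 3. The NJ15 arrays had median levels of 8.42, 9.23 and 9.03. Their median places in the mock span were 28.0%, 69.3% and 60.7%. NJ15 replicate 1 was thus the array nearest to mock replicate 1, and the other 2 NJ15 arrays stood near mock replicate 2.

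The widest mock span belonged to AT5G48490, which encodes a small secreted protein of the lipid-transfer family. Its levels were 6.68, 9.67 and 12.16 in mock and 7.67, 9.78 and 9.76 in NJ15. All 3 NJ15 values lay inside the mock range, with replicate 1 far below the other 2. CaS, a thylakoid membrane protein known as the calcium sensing receptor, had the next widest span among named members, at 6.63, 9.01 and 10.61 in mock and 7.87, 9.16 and 9.05 in NJ15. AT3G05730, of the defensin-like family, differed in shape. In mock it stood at 7.50 in replicate 1 and at 11.09 and 11.15 in replicates 2 and 3, while its NJ15 levels were 7.73, 8.27 and 9.72. Mock replicates 2 and 3 were close to each other for this gene, and NJ15 replicate 2 was near the low end of the span, at 21.1%, where most members had it high.

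**Figure D1:**
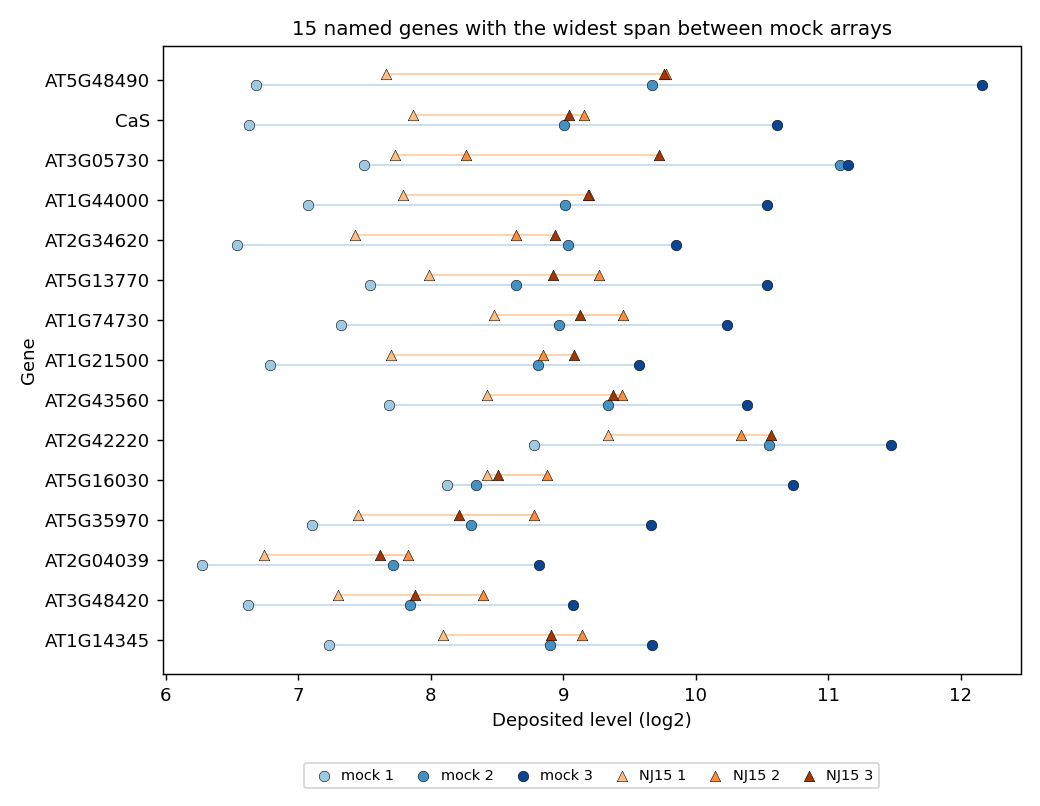
Deposited log2 level on the x axis for the 15 named members with the widest mock span, 1 row per gene, where circles are the 3 mock arrays, triangles the 3 NJ15 arrays, and lines join the arrays of a group. The mock span runs from 5.47 in AT5G48490 to 2.44 in AT1G14345, and every NJ15 value lies inside it.

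The other genes among the 15 widest were mostly plastid proteins as well. AT1G44000, a member of the STAY-GREEN family, whose proteins take part in chlorophyll breakdown, had a mock span of 3.46. AT2G34620, of the family of mitochondrial transcription termination factors, had 3.31, and AT5G13770, a pentatricopeptide repeat protein of the kind that acts on organelle RNA, had 3.00. AT1G74730, a thylakoid protein that shapes the packing of light-harvesting complexes, had 2.91. AT2G43560, of the FKBP-type prolyl isomerases, had 2.71 and AT2G42220, a rhodanese-like protein, 2.697. AT2G04039, a subunit of the chloroplast NADH dehydrogenase-like complex, had 2.54, and AT3G48420, a sugar phosphatase that clears an inhibitor of rubisco, had 2.45. AT1G21500, AT5G35970 and AT1G14345 had 2.79, 2.56 and 2.44. In all of these NJ15 replicate 1 was the lowest NJ15 array. The same held for AT5G16030, with a span of 2.61, but by a small margin: its NJ15 levels of 8.42, 8.88 and 8.51 all lay near mock replicates 1 and 2, at 8.13 and 8.34, and far under mock replicate 3, at 10.73.

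The NJ15 arrays took no part in choosing the members, so differences among them show whether the members also varied together in treated seedlings. NJ15 replicate 3 exceeded NJ15 replicate 1 in 217 of 227 members (95.6%), against 47.0% of the varying probe sets. NJ15 replicate 2 exceeded NJ15 replicate 1 in 217 as well, against a background of 47.8%. Replicate 1 was the lowest NJ15 array in 212 members (93.4%), against 32.7% of the varying probe sets. The highest was replicate 2 in 167 members, replicate 3 in 55 and replicate 1 in 5. There is 1 array on each side of such a difference, so it has no replicate check and no test.

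The differences among NJ15 arrays were smaller than those among mock arrays. The median of NJ15 replicate 3 minus NJ15 replicate 1 was 0.58, where the median mock span was 1.96, and the widest distance between any NJ15 arrays had a median of 0.79. A difference of 1.5 or more between NJ15 replicates 3 and 1 was reached by 7 members (3.08%) and by 0.163% of the varying probe sets. The rule demanded a wide mock span and set no demand on NJ15, so the members' narrower NJ15 spread is a description and not a result of the treatment. A set chosen with the sign turned held 102 probe sets. In these, mock replicate 1 exceeded mock replicate 3 by at least 1.5 and mock replicate 2 lay between them. There NJ15 replicate 3 exceeded NJ15 replicate 1 in 10 (9.80%), and the median difference was -0.42. Other measures mirrored the members less closely. NJ15 replicate 1 was the highest NJ15 array in 64.7% of this set, and NJ15 replicate 2 exceeded it in 28.4%.

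**Figure D2:**
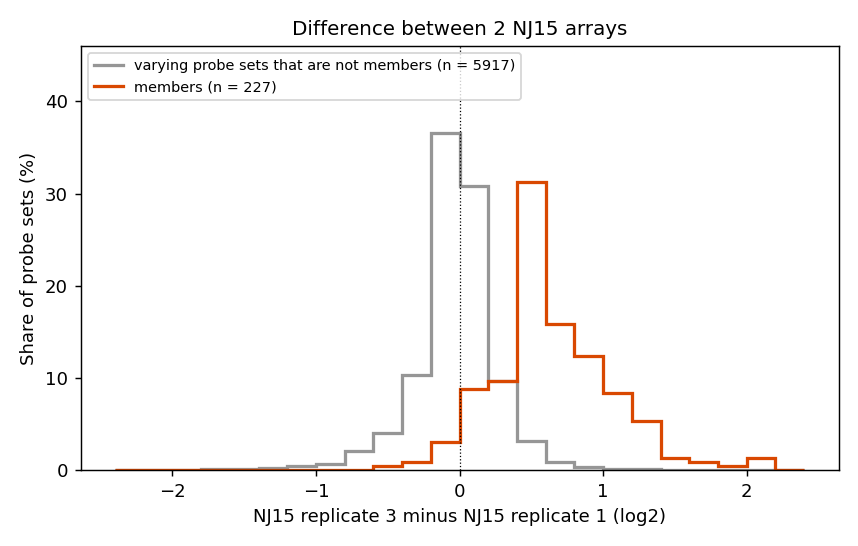
Share of probe sets in percent on the y axis by the log2 difference between NJ15 replicates 3 and 1 on the x axis, in steps of 0.2, for the 227 members and for the 5917 varying probe sets that are not members. The members lie mostly to the right of 0 with a median of 0.58, while the others centre near 0 with a median of -0.01.

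Members with a larger distance between mock replicates 1 and 2 also had a larger distance between NJ15 replicates 1 and 2. Pearson's r over the 227 members was 0.55 and Spearman's rho 0.54. The differences share no array, but all members were read on the same 4 arrays, so this describes these arrays and carries no p-value. For mock replicates 1 and 3 against NJ15 replicates 1 and 3, r was 0.66 and rho 0.57.

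**Figure D3:**
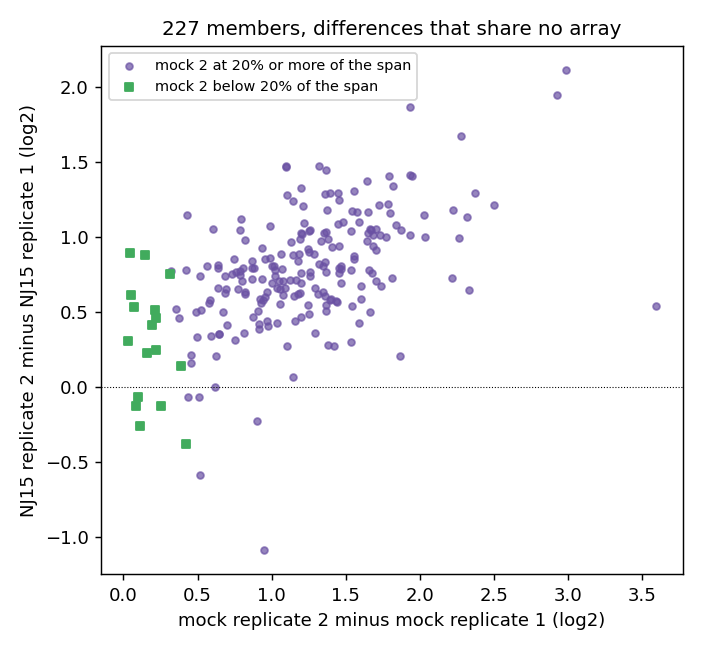
Difference between mock replicates 2 and 1 on the x axis against the difference between NJ15 replicates 2 and 1 on the y axis, both log2, with 1 point per member. Green squares are the 17 members with mock replicate 2 under 20% of the mock span, which have a median NJ15 difference of 0.31. In the 84 members with mock replicate 2 at 60% to 80% of the span that median is 0.82, and in the 18 at 80% or more it is 0.74.

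In the comparison of NJ15 with mock, limma called none of the 227 members at an adjusted p of 0.05, against 0.193% of all tested probe sets and 0.0651% in a fit on the varying ones. None had an unadjusted limma p under 0.05 either, where 5.51% of all tested probe sets did. Most of this background was flat: 4 of the 44 called probe sets varied. So did 447 of the 1253 with an unadjusted limma p under 0.05. The smallest adjusted p of a member was 0.849 (limma). The rule chose members for their wide mock spread, which enters the error of this test, so the absence of calls does not show that NJ15 left the members unchanged. The median standard error of a member's difference was 0.63 on the log2 scale.

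The median difference NJ15 minus mock over members was -0.0009, and 113 of 227 were higher in NJ15. Over the varying probe sets the median was -0.0062. The members' median was -0.55 without mock replicate 1, with 5 members higher in NJ15, and 0.47 without mock replicate 3, with 216 higher. The rule fixed the direction of both moves, as mock replicate 1 is the lowest and mock replicate 3 the highest mock array of each member. NJ15 arrays took no part in the rule, and leaving out single ones also moved the median. The median was 0.25 and -0.17 without NJ15 replicates 1 and 2.

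All 3 NJ15 arrays lay within the mock range in 204 members (89.9%), against 38.4% of the varying probe sets. In the set with the sign turned, 53.9% had all NJ15 arrays inside. Of 100 further probe sets with a mock range of at least 1.5, in neither that set nor the members, 54.0% did. A wide mock range, which the rule demands, leaves more room for this. NJ15 replicate 1 lay below mock replicate 1 in 10 members, and NJ15 replicate 2 exceeded mock replicate 3 in 9. Of the 227, 1 member lay above the mock range on all 3 NJ15 arrays, against 6.51% of the varying probe sets. It is unnamed, and stood at 9.71, 9.77 and 9.70 against 7.77, 8.92 and 9.61 in mock. Likewise 1 member lay below it on all 3, against 5.96%. This was XTH16, a xyloglucan endotransglucosylase that remodels the cell wall. XTH16 stood at 8.22, 8.33 and 9.79 in mock and 7.97, 7.71 and 8.19 in NJ15. The log2 difference of -0.82, with a standard error of 0.52, did not pass (limma, adjusted p = 0.927).

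The named members were grouped by known role after their values had been seen, so the groups carry no test. A role group was given to 58 of the 87. Chlorophyll synthesis runs from early porphyrins, which HEME1 and HEME2 form as uroporphyrinogen decarboxylases, through magnesium insertion by a chelatase with CHLI2 as a subunit, to methylation by CHLM. HEME1 stood at 7.68, 8.94 and 9.63 in mock and 8.14, 9.19 and 8.95 in NJ15. HEME2 ran in parallel, at 8.29, 9.58 and 10.15 in mock and 8.83, 9.72 and 9.56 in NJ15. For both genes NJ15 replicate 1 lay between mock replicates 1 and 2, and the other NJ15 arrays lay close to mock replicate 2 and below mock replicate 3.

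CHLI2 had levels of 6.97, 8.58 and 9.06 in mock and 7.89, 8.47 and 8.38 in NJ15, with the NJ15 arrays close together. CHLM had 9.70, 10.84 and 11.68 in mock and 9.87, 11.11 and 10.95 in NJ15. In CHLM, NJ15 replicate 1 was almost as low as mock replicate 1, at 8.89% of the span, while in CHLI2 it reached 43.6%. The log2 differences NJ15 minus mock were 0.01 for HEME1, 0.03 for HEME2, 0.04 for CHLI2 and -0.09 for CHLM, with standard errors from 0.60 to 0.68, and none passed (limma, adjusted p = 1.0 for each). Each of these differences changed sign when some single array was left out.

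The tetrapyrrole group had 8 members in all, and NJ15 replicate 1 was the lowest NJ15 array in each. LIL3:1, a light-harvesting-like protein that anchors an enzyme of chlorophyll synthesis, had the narrowest mock span of them, 1.53, and its NJ15 replicate 2 matched mock replicate 3, both at 10.10. AT5G38520, which removes the phytol tail of chlorophyll, had a span of 2.18. AT2G35260, a membrane protein that balances chlorophyll synthesis and breakdown, had 1.93. Genes for making chlorophyll and genes for taking it apart were both among the members. Both kinds had NJ15 replicate 1 as the lowest NJ15 array, as did 93.4% of all members.

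**Figure D4:**
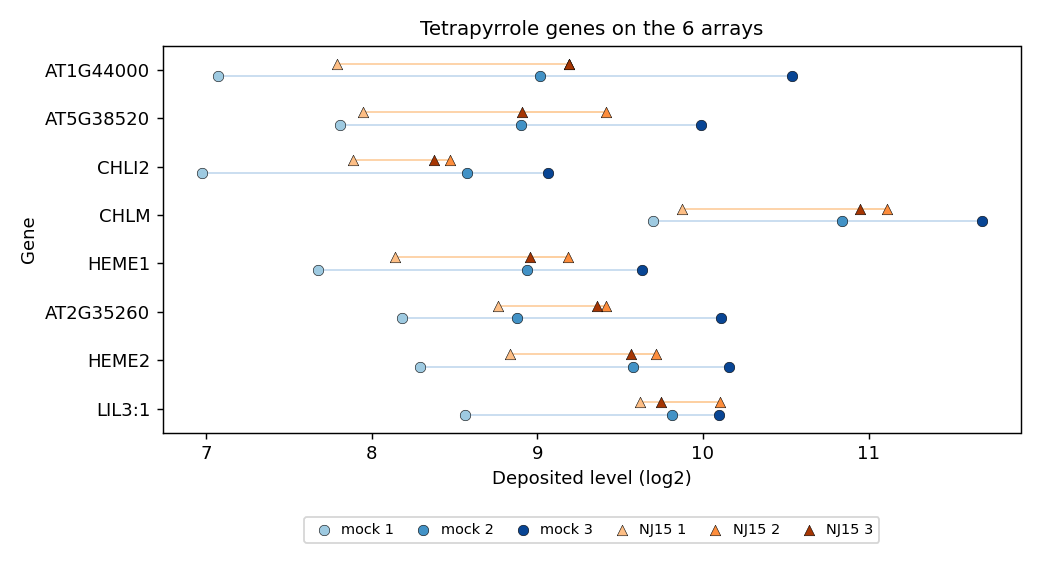
Deposited log2 level on the x axis for the 8 tetrapyrrole members, 1 row per gene, with circles for the mock arrays and triangles for the NJ15 arrays. NJ15 replicate 1 is the leftmost triangle in all 8 rows, and mock spans run from 1.53 in LIL3:1 to 3.46 in AT1G44000.

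The rest of the pathway gives the setting. Of 31 listed genes of chlorophyll and carotenoid synthesis, 8 had a named probe set, all varied, 4 were members and none passed the test of NJ15 against mock in either direction. The 4 that were not members also had mock replicate 3 above mock replicate 1, by 0.34 in GSA1, an enzyme of the first steps, by 0.22 in PORB, a protochlorophyllide oxidoreductase, by 0.62 in AT1G74470, the geranylgeranyl reductase, and by 0.17 in LYC, a lycopene cyclase. PORB was highest in mock replicate 2, at 11.93, with 10.86 and 11.09 in replicates 1 and 3.

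Proteins of the thylakoid and the photosystems made up 11 members, with a median mock span of 1.87. The median places of the NJ15 arrays in the span were 37.4%, 66.4% and 62.0%, and all 11 had their 3 NJ15 values inside the mock range. AT5G08050 belongs to the same small family as AT1G74730 and had levels of 8.14, 9.82 and 10.16 in mock and 8.89, 9.83 and 9.54 in NJ15. AT1G52220, one of the proteins that bend thylakoid membranes, stood at 8.05, 8.70 and 10.10 in mock and 8.83, 9.18 and 9.30 in NJ15. TROL, which tethers ferredoxin reductase to the thylakoid, had a span of 1.58. AT5G07020, a protein that protects photosystem II in strong light, had 1.57, and AT1G51400, a small photosystem II protein, had 1.68.

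The 5 genes that met the numbers and were left out by name had mock spans of 3.10 in PSAN, 2.50 in PSBY, 1.90 in LHCB4.2, and 1.79 in both PSAE-1 and RCA. In all 5, NJ15 replicate 1 was the lowest NJ15 array and every NJ15 array lay inside the mock range. The highest NJ15 array was replicate 3 in 3 of them, PSBY, PSAN and LHCB4.2, and replicate 2 in the other 2, whereas most members had replicate 2 highest. Of 42 further listed genes of the photosystems and light harvesting, 2 had a named probe set and 1 varied. This was ATPC1, a subunit of the chloroplast ATP synthase, at 10.31, 11.14 and 11.46 in mock and 10.91, 11.32 and 11.16 in NJ15, short of the rule with a span of 1.15.

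Carbon metabolism and rubisco assembly had 6 members. SBPASE, an enzyme that regenerates the acceptor of carbon fixation, stood at 8.64, 9.93 and 10.46 in mock and 9.60, 10.26 and 10.06 in NJ15. Its NJ15 arrays all lay in the upper part of the mock span, with a log2 difference of 0.30 and a standard error of 0.57 that did not pass (limma, adjusted p = 0.999). AT5G28500 and AT3G47650, which encode assembly factors of rubisco, had spans of 1.78 and 1.72. AT5G58330, the NADP-dependent malate dehydrogenase that exports reducing power, had 1.70.

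HPR, the hydroxypyruvate reductase of photorespiration, had another shape. It stood at 9.51 and 9.66 in mock replicates 1 and 2 and at 11.07 in replicate 3. Its NJ15 levels were 9.44, 10.32 and 10.06, with a log2 difference of -0.14, a standard error of 0.55 and no call (limma, adjusted p = 1.0). Of 19 listed photorespiration genes, 5 had a named probe set, and all 5 varied. AT1G32470, of the glycine cleavage system, missed the rule with a span of 1.44, AT1G11860 of the same system had 0.98, and LrgB, the plastid glycolate and glycerate transporter, also had 0.98. AT1G80380, glycerate kinase, had -0.27. None of the 5 passed the test of NJ15 against mock.

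Plastid gene expression and protein folding was the largest role group, with 14 members, a median mock span of 1.96 and NJ15 places of 29.6%, 78.6% and 70.0%. NJ15 replicate 1 was the lowest NJ15 array in all 14. FUG1, the plastid translation initiation factor, stood at 8.56, 9.77 and 10.57 in mock and 9.22, 10.42 and 10.02 in NJ15. AT5G55220, a trigger-factor chaperone, stood at 6.98, 8.85 and 9.32 in mock and 8.22, 9.26 and 8.90 in NJ15. In both, NJ15 replicates 2 and 3 lay above mock replicate 2 and below mock replicate 3. The ribosomal proteins AT3G13120 and AT1G64510 had spans of 1.59 and 1.57, and MAP1C, a methionine aminopeptidase, had 1.85.

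Cpn60beta2, a subunit of the chaperonin that folds plastid proteins, departed from the rest of this group. It had levels of 7.85, 9.71 and 9.86 in mock and 9.66, 9.87 and 10.62 in NJ15. NJ15 replicate 3 lay above every mock array, at 138% of the mock span. NJ15 replicate 2 lay just above mock replicate 3, at 100.5%, and NJ15 replicate 1 was near mock replicate 2. The log2 difference of 0.91 was the highest in any role group and did not pass (limma, adjusted p = 0.943). Cpn60beta2 falls outside the rule for named genes and was singled out after its values were seen.

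Redox and rhodanese proteins gave 9 members, all with their 3 NJ15 arrays inside the mock range and with NJ15 replicate 1 lowest. NTRC, a thioredoxin reductase of the chloroplast that carries its own thioredoxin, stood at 7.71, 8.77 and 9.61 in mock and 8.46, 9.11 and 8.92 in NJ15. TRXF2, a thioredoxin that switches on enzymes of carbon fixation in the light, had 7.29, 8.20 and 8.87 in mock and 7.72, 8.23 and 8.25 in NJ15. AOR, a plastid reductase of reactive carbonyls, had a span of 2.08. AT1G64500, a glutaredoxin-like protein with a span of 2.15, and AT1G64510, a ribosomal protein named above, were the 1 pair of named members that are direct neighbours in the gene table.

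Secreted, lipid and wall proteins looked different. In 9 of these 10 members NJ15 was lower than mock on average, with a median log2 difference of -0.41. In the other 5 role groups the medians lay between -0.06 and 0.06. Mock replicate 2 stood at a median of 37.0% of the mock span here, against 55.4% to 65.6% in the other 5 groups. The NJ15 arrays stood low in the span as well, at medians of 12.6%, 32.0% and 37.4%. AT3G16670, a protein related to a pollen allergen family, showed this plainly, with 6.52, 7.14 and 8.81 in mock and 6.55, 6.55 and 6.67 in NJ15, so that all 3 NJ15 arrays stood just above mock replicate 1. AT2G18370, a lipid transfer protein, had 7.30, 8.71 and 9.20 in mock and 7.47, 7.74 and 8.05 in NJ15. The subtilisin-like protease AT4G21650 had 5.74, 5.99 and 7.37 in mock and 6.05, 5.92 and 5.98 in NJ15. AT2G43620, of a chitinase family, was the exception, at 6.51, 7.02 and 8.10 in mock and 7.48, 7.41 and 7.25 in NJ15. None of these passed (limma), and a difference between role groups was not tested. The log2 difference and the place of mock replicate 2 both use the mock arrays that chose the members. Among all members, NJ15 was lower on average in 26 of 34 with mock replicate 2 at 20% to 40% of the span. At 60% to 80% of the span it was lower in 25 of 84. Whether the role or the place of mock replicate 2 goes with the lower NJ15 mean was not tested.

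**Figure D5:**
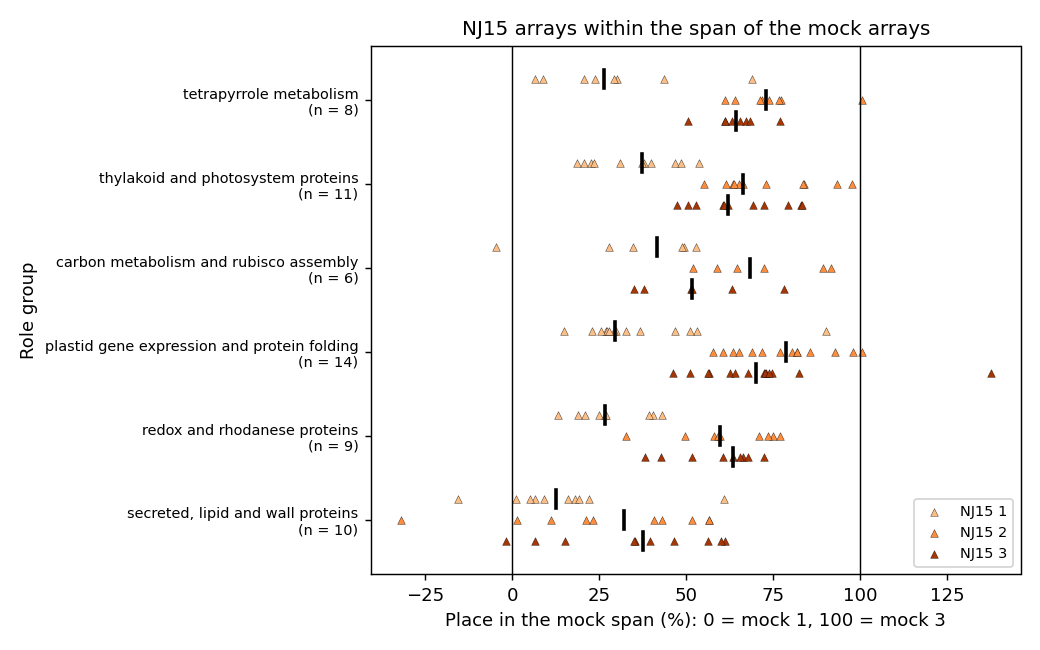
Place of each NJ15 array in the mock span in percent on the x axis, where 0 is mock replicate 1 and 100 is mock replicate 3, for 58 named members in 6 role groups; triangles are genes and black bars medians. NJ15 replicate 1 has the lowest median in each group, and secreted, lipid and wall proteins have the lowest medians for all 3 arrays, at 12.6%, 32.0% and 37.4%. Mock replicate 2, not drawn, has a median of 37.0% in that group.

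Mock replicate 2 differed in its place among members. In 17 members it stood under 20% of the span, so that mock replicate 3 alone was high. All 17 had a lower mean in NJ15 than in mock, with a median log2 difference of -0.48, as a high value in a single mock array raises the mock mean. Both the place and this difference use the mock arrays that chose the members, so this is a description only.

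Among the members high in mock replicate 3 alone was GSTU20, a tau glutathione transferase. It stood at 7.35, 7.77 and 9.57 in mock and 7.38, 7.002 and 7.18 in NJ15, with replicate 1 the highest NJ15 array. AT5G44580 had 8.00, 8.06 and 9.51 in mock and 7.61, 8.14 and 7.53 in NJ15. AT3G47250 had 7.53, 7.57 and 9.47 in mock, and of its NJ15 levels of 7.63, 8.52 and 7.66 that of replicate 2 stood apart. These 3 genes, with AT2G43620 and AT4G21650, had the lowest NJ15 replicate 3 minus replicate 1 of the named members, from -0.23 to 0.03. The highest were AT5G48490 with 2.09, AT3G05730 with 2.00, AT2G34620 with 1.51, AT1G44000 with 1.401 and AT1G21500 with 1.38.

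HYH, a transcription factor of the light response and the close relative of HY5, stood at 6.23, 7.67 and 8.23 in mock and 6.44, 7.74 and 7.52 in NJ15. NJ15 replicate 1 was near mock replicate 1, and the log2 difference of -0.14, with a standard error of 0.71, did not pass (limma, adjusted p = 1.0). HYH was the only gene with a named probe set among 37 listed for light signalling. RR16, a cytokinin response regulator, lay just inside the rule with a span of 1.52, at 6.54, 7.18 and 8.07 in mock and 6.48, 7.28 and 7.44 in NJ15.

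Of 32 listed clock genes, 2 had a named probe set and 1 varied. This was GI, a clock component with peak expression towards dusk. It ran opposite to the members in mock, at 8.35, 7.91 and 6.67, and was nearly level in NJ15, at 7.95, 7.81 and 7.84. NJ15 replicate 1 was the highest NJ15 array for GI, by a small margin. The 1 varying gene of 17 listed for darkness and sugar starvation, AKINBETA1, a subunit of an energy-sensing kinase, stood at 10.24, 9.57 and 9.58 in mock and 9.55, 9.67 and 9.27 in NJ15.

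Markers of other tissues were thinly covered. Of 18 listed root genes 4 had a named probe set and 2 varied, both of which belong to the ER bodies of seedlings and roots. PYK10, a beta-glucosidase, had 13.29, 13.32 and 13.05 in mock and 13.21, 13.18 and 13.27 in NJ15. NAI2 had 11.64, 11.35 and 10.32 in mock and 11.70, 11.17 and 11.37 in NJ15, so mock replicate 3 was lowest for both. No listed marker of the shoot epidermis had a named probe set, and the 1 with a named probe set of 7 for guard cells and phloem was flat. Whether tissue shares moved with the members was not tested.

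None of the 9 nitrate and sulfate genes and none of the 15 genes for plastid transcription, chaperones and proteases on the lists had a named probe set. The 1 measured flavonoid gene of 8 was flat. Of 20 glucosinolate genes 2 had a named probe set and 1 varied. This was BCAT4, an aminotransferase of chain elongation, at 7.05, 6.08 and 9.59 in mock and 6.64, 6.37 and 6.08 in NJ15, which missed the rule because mock replicate 2 was below replicate 1.

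The rule's threshold of 1.5 divided neighbouring values. The named members just inside it were AT3G08920, a rhodanese-like protein, AT5G44580 and RR16, each with a span of 1.52. Just outside were GSTU18 with 1.496, and a pair of unnamed probe sets with 1.497 and 1.49. GSTU18, like GSTU20 a tau glutathione transferase, stood at 7.003, 7.25 and 8.50 in mock. In NJ15 it had 7.20, 7.92 and 7.60, with replicate 2 highest, where GSTU20 had replicate 2 lowest.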

How the data were processed

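Total RNA of 3 mock and 3 NJ15 samples was measured on 1 array each. The authors deposited 1 value per probe set and array, 22810 in all, read as log2 from their range; their log base, background correction and normalization are steps not given in the sources used here. R 2.7.2 is named in the submitters' processing notes. Values were used as deposited after 64 control probe sets were left out. A moderated linear model (limma 3.58.1, run under R 4.3.3) gave two-sided p-values for the difference of NJ15 from mock, and these were adjusted by the Benjamini-Hochberg method for 22746 probe sets. To keep flat probe sets free of rounding noise, the level on 1 array was subtracted from each probe set before fitting. The fit was tried on simulated data with independent noise over the 6144 varying probe sets only, so the flat ones were not covered. It called 66%, 78%, 98% and 92% of 50 probe sets each, shifted by 1, 2, 3 and 4 on the log2 scale, with 3 false calls. Names came from the platform annotation, updated by a gene table of assembly TAIR10.1. All 87 named members matched a locus.

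The members and lists were chosen with earlier results of these data known, and role groups after the members were seen. Named genes were the 15 widest mock spans, members with all NJ15 arrays outside the mock range (up to 6 a side), the 5 highest and 5 lowest differences between NJ15 replicates 3 and 1, the 3 nearest the threshold on each side, and members on the lists; other genes named were chosen after their values were seen. Alternatives were quantile normalization, median centring, removal of the lowest 25% by mean, varying probe sets only, a trend with intensity and robust variance, each array left out in turn, a block for the replicate number, 1 probe set per gene, and rule thresholds of 1.0 and 2.0. Deviations of same-numbered arrays from their group means correlated at 0.59, -0.30 and 0.19 over the varying probe sets. With members left out they were 0.44, -0.35 and 0.09. These values cannot tell whether same-numbered samples were handled together, and the main fit did not pair them. P-values set the difference between groups against the spread between these samples, moderated by the spread over all probe sets in the fit. Figures were drawn with matplotlib 3.10.9.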

Additional observations from a re-analysis of the deposited data

Results flagged for a closer look

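A control probe set for the 3′ end of GAPDH (AFFX-r2-At-GAPDH-3_s_at), which took no part in the comparisons, had all 3 NJ15 arrays above all mock arrays, with a log2 difference of 0.61. Its levels were 11.79, 11.91 and 11.71 in mock and 12.58, 12.46 and 12.19 in NJ15. Groups of 3 arrays are too small for a check of single outlying samples.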

How the results depend on the processing

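Under every alternative run, limma called 0 members; the highest count of members with an unadjusted p under 0.05 was 4 of 227, without mock replicate 3. The count over all probe sets, 44 as deposited, was 0 after quantile normalization, with an intensity trend and robust estimation and with the replicate block, where 3347, 886 and 1208 had an unadjusted p under 0.05. It was 17165 after median centring, which gives flat probe sets the arrays' shifts, 1 without probe sets of low mean, 4 over varying probe sets only, 0 with the replicate block over varying probe sets (chosen after seeing the data; 449 at an unadjusted p under 0.05), and 4 to 15 with single arrays left out. The number of members was 221 after quantile normalization, 471 at a threshold of 1.0 and 108 at 2.0. The share of members with NJ15 replicate 3 above replicate 1 was 92.4% to 97.2% over both scalings, both thresholds and named members only. Over both scalings and named members, the median of that difference was 0.52 to 0.58 and the share inside the mock range 88.5% to 90.8%. Differences of NJ15 minus mock with single arrays left out ran from -0.72 to 0.28 for HYH, -0.57 to 0.47 for CHLI2, -0.62 to 0.38 for CHLM, -0.49 to 0.44 for HEME2, -0.52 to 0.46 for HEME1, -0.42 to 0.36 for HPR and -0.22 to 0.69 for SBPASE, so each changed sign; XTH16 ran from -1.10 to -0.32. HEME1 also turned to -0.0042 after quantile normalization and -0.0053 after centring. The replicate block changed no other call. The cause of these moves was not tested, except that the members' mock arrays were chosen to lie far apart. Signal over background is unknown here. The planned search for promoter motifs was not run, and promoter sequences are not analysed here.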
